A study of Mus musculus with 12 samples.

Results

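Adenosine receptor and metabolism genes were followed through the brainstem of neonatal mice after repeated morphine. They were *Adora1*, *Adora2a*, *Adora2b*, *Nt5e*, *Adk*, *Slc29a1* and *Slc29a2*, chosen by symbol, and all 7 were found among the 55418 genes counted. RNA came from the brainstem (medulla and pons) of 12 outbred CFW (Swiss Webster) pups at P15, with 3 males and 3 females given saline and 3 of each sex given morphine. Morphine pups had received 15 mg/kg morphine subcutaneously 2 times a day from P1 to P14, saline pups had received saline on the same days, and tissue was taken 16 h after the last injection, during spontaneous withdrawal. Litters held pups of both treatments, and the dam of each pup is not in the labels, so pups that shared a dam could not be told from pups that did not. The labels name brainstem as the tissue, whereas the text on RNA extraction speaks of spinal cords.

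Adenosine is a nucleoside that dampens neuronal activity, breathing and arousal. It is formed outside cells when ATP is broken down and its last phosphate is removed by the ecto-5′-nucleotidase Nt5e (CD73), it crosses membranes through the equilibrative transporters Slc29a1 (ENT1) and Slc29a2 (ENT2), and it is returned to AMP inside cells by adenosine kinase, Adk. It is sensed by G protein-coupled receptors, of which A1 (*Adora1*) lowers cyclic AMP and the receptors encoded by *Adora2a* and *Adora2b* raise it. Opioid receptors also lower cyclic AMP, and *Adora2a* is best known from the striatum, where it is abundant.

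Each library held 27850565 to 48097947 counts (median 33214511). All 6 hindbrain neuron markers were detected, with a summed level of 538 to 733 CPM (counts scaled to library size after TMM normalization), against 39.2 to 55.2 CPM for 6 forebrain and striatal markers. In 1 library, labelled morphine male 6, the sex-linked genes lay between the levels of the other males and those of the females. *Xist* was 380 CPM, against 0.399 to 2.65 CPM in the other males and 550 to 979 CPM in the females. The Y-linked *Ddx3y* was 12.8 CPM, against 115 to 199 CPM in the other males and 0.0580 to 0.734 CPM in the females. *Uty* (9.05 CPM, lowest other male 24.1, highest female 0.183), *Kdm5d* (12.4, 30.9 and 0.314) and *Eif2s3y* (19.1, 56.2 and 0.275) lay between likewise. The reason was not tested. The comparisons that hold this library are therefore also given without it.

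The promoters shown here belong to the genes that varied most together, *Slc29a1* and *Slc29a2*, and to those that varied least, *Adora2b* and *Adk*. Each run is the 250 bases before a transcription start in RefSeq on GRCm38.p6, read 5′ to 3′ on the strand of the gene, and capitals mark GC boxes (GGGCGG, or CCGCCC on the other strand). *Slc29a1* has 8 starts in the table and *Adk* has 2, and the start nearest the 5′ end of the gene was used. The windows are chr17:45599619-45599868 (minus strand), chr19:5023756-5024005 (plus strand), chr11:62248734-62248983 (plus strand) and chr14:21052324-21052573 (plus strand).
Slc29a1: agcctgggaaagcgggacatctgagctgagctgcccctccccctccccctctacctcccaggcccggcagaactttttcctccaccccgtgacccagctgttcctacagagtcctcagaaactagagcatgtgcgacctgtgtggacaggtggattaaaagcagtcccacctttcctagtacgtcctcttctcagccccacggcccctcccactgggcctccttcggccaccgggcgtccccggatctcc
Slc29a2: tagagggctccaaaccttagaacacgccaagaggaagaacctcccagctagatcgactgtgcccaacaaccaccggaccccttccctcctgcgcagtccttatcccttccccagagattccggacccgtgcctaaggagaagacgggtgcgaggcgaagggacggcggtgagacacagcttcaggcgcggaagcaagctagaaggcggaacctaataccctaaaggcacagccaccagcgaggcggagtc
Adora2b: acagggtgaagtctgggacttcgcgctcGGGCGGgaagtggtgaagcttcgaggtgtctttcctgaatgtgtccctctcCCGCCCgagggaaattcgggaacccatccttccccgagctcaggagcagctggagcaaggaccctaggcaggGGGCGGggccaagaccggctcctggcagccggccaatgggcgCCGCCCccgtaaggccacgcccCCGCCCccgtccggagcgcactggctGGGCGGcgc
Adk: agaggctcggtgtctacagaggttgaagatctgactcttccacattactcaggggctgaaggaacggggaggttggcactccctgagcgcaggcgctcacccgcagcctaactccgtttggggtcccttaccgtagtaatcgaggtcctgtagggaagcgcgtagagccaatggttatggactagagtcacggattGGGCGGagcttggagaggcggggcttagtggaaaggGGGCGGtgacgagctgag
The windows of both transporters held 0 GC boxes, whereas *Adora2b* held 6 and *Adk* held 2. Of the other members in the table, *Adora1* held 3 and *Nt5e* held 4, so 4 of the 6 members with a promoter held at least 1, against 32.7% of all 32851 promoters of this length. A TATA box (TATAAA or TTTATA), a cyclic AMP response element (TGACGTCA) and an E-box (CACGTG) were found in 0 of the 6 and in 12.4%, 1.5% and 6.0% of all promoters. All 6 windows were rich in GC, at 58.8% to 72.0% against a median of 52.4%. *Adora2a* was not among the promoters used here.

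Per length of exon, the A1 receptor was the highest of the 7 in saline mice and *Adora2a* was the lowest. Mean levels in the 6 saline mice, in CPM per kb of exon, were 25.0 ± 6.17 (SD) for *Adora1*, 10.2 ± 0.564 for *Adk* and 5.51 ± 0.481 for *Adora2b*. They were 3.31 ± 1.54 for *Slc29a2*, 2.33 ± 1.12 for *Slc29a1*, 1.503 ± 0.302 for *Nt5e* and 0.568 ± 0.292 for *Adora2a*. *Adora1* stood above *Adk* by 2.44 times, *Adk* above *Adora2b* by 1.86 times, and *Nt5e* above *Adora2a* by 2.65 times, with no overlap between mice. The ranges of the other neighbours in this order overlapped, although *Adora2b* was above *Slc29a2*, and *Slc29a2* above *Slc29a1*, in each of the 6 mice, and *Slc29a1* was above *Nt5e* in 4 of them. With the longest transcript as the length, *Slc29a1* (4.21) passed *Slc29a2* (3.81), so these transporters have no fixed order. By that length *Adora1* stood above *Adk* by only 1.41 times (29.1 against 20.6), in 5 of the 6 mice and with overlap, while *Adk* stood above *Adora2b* by 3.74 times and *Nt5e* above *Adora2a* by 4.83 times, still without overlap.

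**Figure D1:**
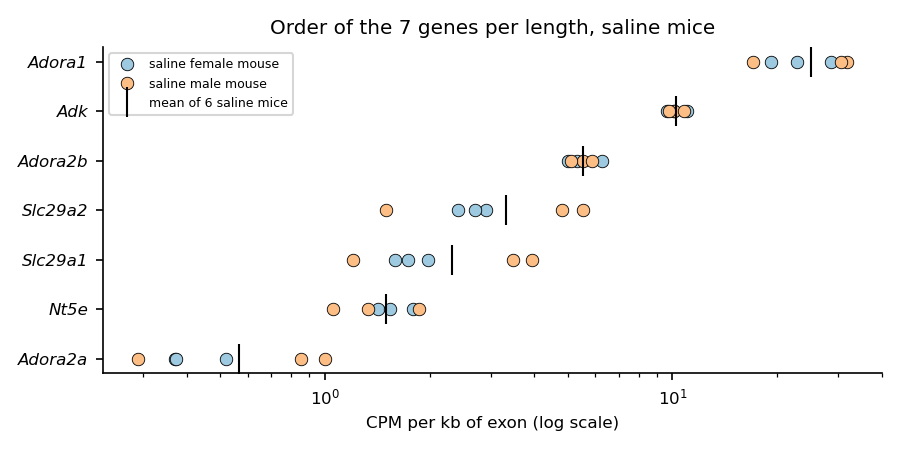
Level of each gene in the 6 saline mice, in CPM per kb of exon on a log axis, with 1 point per mouse and a bar at the mean. *Adora1* (25.0) sits highest and *Adora2a* (0.568) lowest, and the points of *Adora2b*, *Slc29a2*, *Slc29a1* and *Nt5e* overlap between neighbours.

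*Adora1* (chromosome 1, 134199223 to 134235431, minus strand, GRCm38) encodes the A1 receptor, which inhibits neurons. It measured 183, 177 and 98.4 CPM in saline males 1 to 3 and 166, 132 and 111 CPM in saline females 4 to 6. In morphine mice it measured 142, 125 and 141 CPM in females 1 to 3 and 136, 122 and 160 CPM in males 4 to 6. The 6 morphine mice all lay inside the saline range, and saline male 3 was the lowest of the 12. Of its exon bases, 20.1% also belong to *Mybph* on the other strand, and the sources used here do not say whether counting used strand.

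*Adora2a* (chromosome 10, 75316877 to 75334784, plus strand) encodes a receptor that raises cyclic AMP and rested on only 29 to 144 counts a library. It measured 2.61, 3.07 and 0.890 CPM in saline males 1 to 3, 1.13, 1.59 and 1.14 CPM in saline females, 1.02, 1.42 and 1.145 CPM in morphine females, and 1.53, 1.32 and 1.60 CPM in morphine males. Saline males held both the highest values and the lowest, and the other 9 mice lay between 1.02 and 1.60 CPM.

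*Adora2b* (chromosome 11, 62248984 to 62266453, plus strand) encodes a second such receptor, of lower affinity for adenosine, and was among the steadiest genes of the table. It measured 10.2, 10.8 and 9.45 CPM in saline males, 11.6, 9.78 and 9.22 CPM in saline females, 11.2, 9.39 and 10.0 CPM in morphine females, and 9.67, 9.94 and 10.8 CPM in morphine males. All 4 groups overlapped, and the SD of its log2 CPM over the 12 mice (0.11) was lower than that of all but 5.48% of the 18608 genes tested.

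*Nt5e* (chromosome 9, 88327197 to 88372092, plus strand), which produces extracellular adenosine, measured 9.10, 11.5 and 16.1 CPM in saline males and 12.2, 13.2 and 15.5 CPM in saline females. In morphine mice it measured 14.8, 10.6 and 13.3 CPM in females and 11.3, 14.2 and 10.3 CPM in males. Its order among saline males was the reverse of that of *Adora1*, with saline male 3 the highest of the 12 mice, and all groups overlapped.

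*Adk* (chromosome 14, 21052574 to 21448569, plus strand), which clears adenosine, measured 86.3, 83.1 and 92.2 CPM in saline males and 94.1, 86.3 and 82.3 CPM in saline females. Morphine females had 89.1, 80.5 and 97.7 CPM, and morphine males had 77.6, 81.6 and 79.2 CPM. Each morphine male was below each saline male, whereas the females overlapped.

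*Slc29a1* (chromosome 17, 45585200 to 45599606, minus strand) measured 13.96, 15.8 and 4.82 CPM in saline males and 7.96, 6.97 and 6.39 CPM in saline females. Morphine females had 8.38, 9.08 and 8.87 CPM, and morphine males had 10.0, 8.59 and 14.2 CPM. Each morphine female was above each saline female, by a gap smaller than the SD among saline females, while saline males spanned the values of all other groups. For this separation, and that of *Adk* in males, the share of all genes that separate likewise was not computed. Of its exon bases, 6.9% also belong to *Gm17080* on the other strand.

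*Slc29a2* (chromosome 19, 5023860 to 5031972, plus strand) measured 14.6, 16.7 and 4.51 CPM in saline males, 8.75, 8.16 and 7.28 CPM in saline females, 8.84, 8.15 and 9.97 CPM in morphine females, and 9.40, 8.79 and 12.6 CPM in morphine males. Its order of mice was close to that of *Slc29a1*. The ratio of *Slc29a1* to *Slc29a2* per kb stayed between 0.643 and 0.854 while each gene ranged more than 3-fold, and the highest ratio was in the library labelled morphine male 6.

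**Figure D2:**
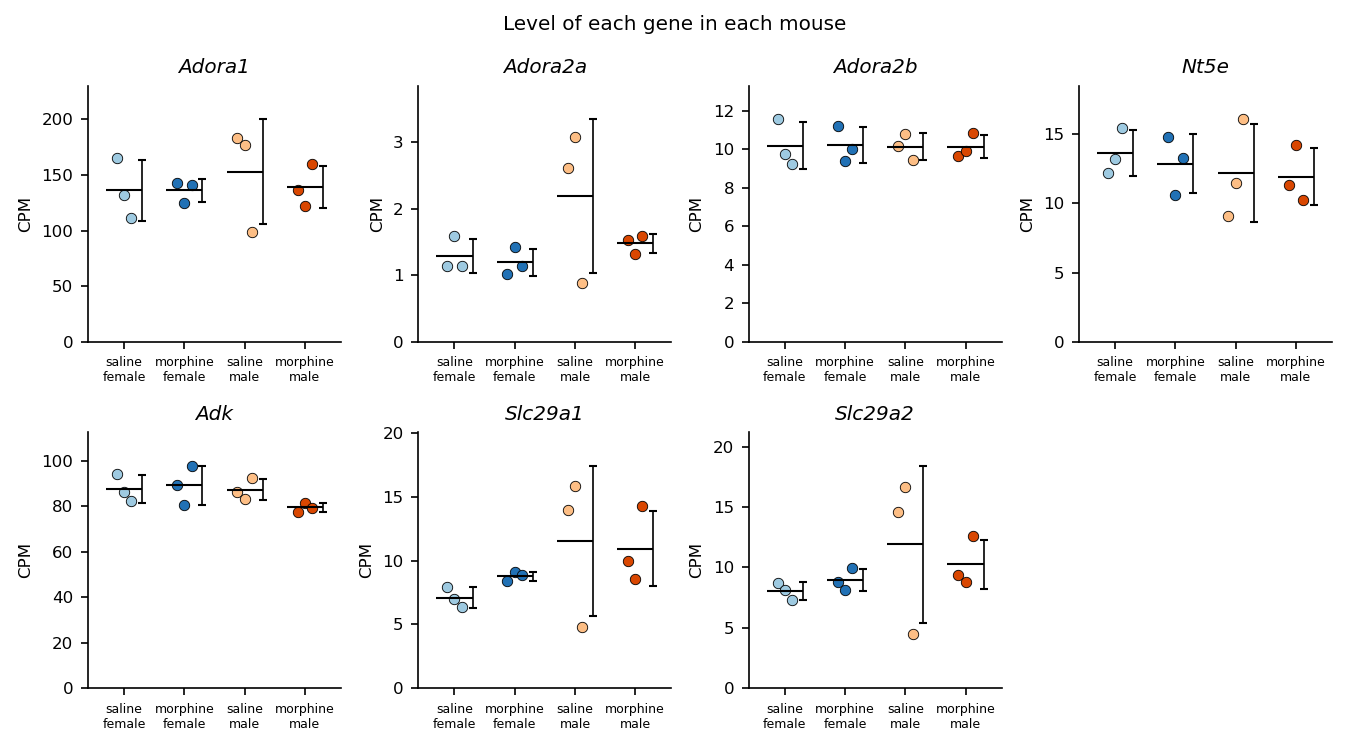
Level of each gene in CPM by group, with 1 point per mouse, a line at the group mean and a bar of 1 SD (n = 3 each). Saline males are the widest group for *Adora1*, *Adora2a*, *Nt5e*, *Slc29a1* and *Slc29a2*, and *Adora2b* lies between 9.22 and 11.6 CPM in all 12 mice.

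No member passed the thresholds in the comparison of 6 morphine with 6 saline mice, the sexes combined and sex as a covariate (edgeR quasi-likelihood test, requiring a *p* below 0.05 before adjustment and a log2 fold change beyond 0.26 in size). The count was 0 of 7, beside 1.19% of all 18608 genes tested, of which 0 had an adjusted *p* under 0.05 and 246 an unadjusted *p* under 0.05. Of the members, 0 had an unadjusted *p* under 0.05 in the main fit with all mice, here or in any comparison that follows. With exactTest and DESeq2, 0 passed in each of the treatment comparisons they were run on. Other alternatives that did pass members are given below. The largest difference was that of *Adora2a*, with a mean of 1.34 ± 0.224 CPM (SD, n = 6) in morphine and 1.74 ± 0.895 CPM in saline mice, a log2 fold change of -0.35 (95% confidence interval -0.92 to 0.22, edgeR adjusted *p* = 1.00). The interval of *Adk* was the narrowest at -0.21 to 0.10 and that of *Adora2b* ran from -0.21 to 0.21, so for these genes a change of 0.26 lay outside the interval. For *Adora1* (-0.39 to 0.25), *Nt5e* (-0.38 to 0.26), *Slc29a1* (-0.40 to 0.63) and *Slc29a2* (-0.57 to 0.50) the interval held a change of that size in at least 1 direction. The median over the 7 members was -0.05 and over all genes -0.02, with 2 members higher and 5 lower. Without the library labelled morphine male 6 the value of *Adora2a* was -0.35, the others lay between -0.11 (*Adora1*) and 0.03 (*Slc29a1*), and 0 of 7 passed. In whole tissue, fewer cells of a type and less RNA per cell cannot be told apart.

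Females and males were then compared apart, as the study did. Among females 0 of 7 members passed, beside 1.81% of all 18109 genes. *Slc29a1* came closest, at 8.77 ± 0.359 CPM in morphine and 7.11 ± 0.793 CPM in saline females (log2 fold change 0.30, interval -0.01 to 0.61, edgeR adjusted *p* = 1.00). It passed with total counts as the only scaling (0.30, where 1.93% of all genes passed) and without saline female 4 (0.38, where 7.95% passed). The other females' values ran from -0.11 for *Adora2a* to 0.15 for *Slc29a2*.

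Among males 0 of 7 members passed, beside 2.99% of all 18166 genes. All 7 log2 fold changes were below 0 (median -0.16, all genes -0.06), from -0.03 for *Adora2b* to -0.60 for *Adora2a*. For *Adora2a* the interval ran from -1.63 to 0.44 and for *Slc29a1* from -1.13 to 0.93, so a change of 0.26 in either direction lay inside both intervals. Over the same mice the sum of 6 forebrain and striatal markers was 39.2 to 43.2 CPM in morphine and 45.8 to 53.7 CPM in saline males, without overlap, and its part in the value of *Adora2a* was not tested. *Adk*, whose males did not overlap, had 79.4 ± 2.04 CPM in morphine and 87.2 ± 4.64 CPM in saline males (log2 fold change -0.16, interval -0.43 to 0.11, edgeR adjusted *p* = 1.00). The share of all genes that did not overlap between 3 and 3 mice was not computed, so this separation is a description only. The males' sums of 5 astrocyte markers did not overlap either, at 2268 to 2310 CPM in morphine and 2424 to 2619 CPM in saline males, and its part in the value of *Adk* was not tested. For 3 of the 7 members the direction turned with total counts as the scaling, which moved the median of all genes from -0.06 to 0.06, to values of 0.10 for *Adora2b*, 0.06 for *Nt5e* and 0.02 for *Slc29a1*.

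The change in males minus that in females was tested for itself, and 0 of 7 members passed, beside 2.94% of 19027 genes. It was -0.47 for *Adora2a*, -0.38 for *Slc29a1* and -0.38 for *Slc29a2*, and the smallest *p* was that of *Adk* (-0.16, interval -0.48 to 0.16, edgeR adjusted *p* = 0.985). Without the library labelled morphine male 6 the differences were -0.53 for *Adora2a*, -0.62 for *Slc29a1*, -0.55 for *Slc29a2* and -0.16 for *Adk*, and 0 of 7 passed.

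Males and females, with treatment in the fit, differed most in *Adora2a*, at 1.84 ± 0.830 CPM in 6 males and 1.24 ± 0.217 CPM in 6 females, and in *Slc29a1*, at 11.2 ± 4.18 CPM and 7.94 ± 1.06 CPM. Neither passed: the log2 fold changes of males over females were 0.55 (interval -0.02 to 1.12, edgeR adjusted *p* = 0.734) and 0.51 (interval -0.01 to 1.03, edgeR adjusted *p* = 0.734). Thus 0 of 7 members passed, beside 3.94% of all genes, or 3.05% counted as higher in males. These values lie next to the threshold and the call depends on the version of the test: with the adjusted deviance of the newer edgeR fit, both passed (edgeR adjusted *p* = 0.705 for each, where 4.41% of all genes passed). The males' SD was over 3 times that of the females for both genes. Without the library labelled morphine male 6 the values were 0.55 for *Adora2a* and 0.43 for *Slc29a1*, and 0 of 7 members passed.

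**Figure D3:**
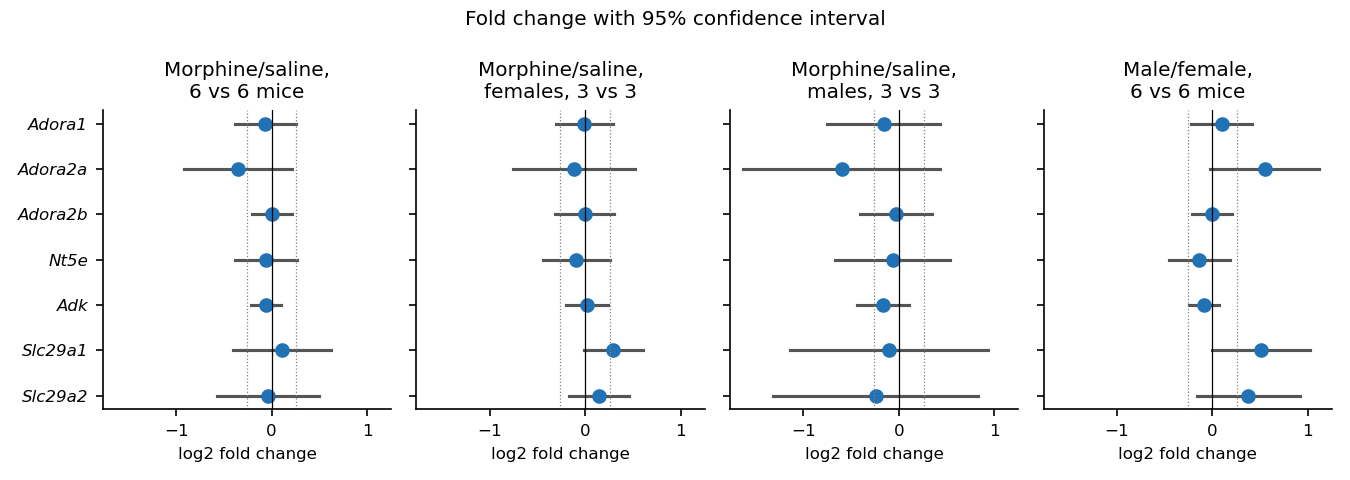
Log2 fold changes of the 7 genes in the treatment comparisons and in males over females, with points at the estimate, lines for the 95% confidence interval and dotted lines at the threshold of 0.26 in each direction. Every interval includes 0, and those of males are wider than those of females.

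Apart from treatment, some members varied with the level of GC-rich against GC-poor transcripts in each library. A GC index was computed for each library as the median centred log2 CPM of the 10% of genes richest in GC minus that of the 10% poorest. It ran from -1.149 in saline male 3 to 1.18 in saline male 2 and 0.91 in saline male 1, and from -0.27 to 0.56 in morphine mice, with the highest of these in the library labelled morphine male 6. With the sexes combined, group means were -0.006 for saline and 0.002 for morphine mice, so the index differed in spread more than in mean. Within a sex the means differed, at -0.32 in saline and -0.10 in morphine females, and 0.31 in saline and 0.10 in morphine males. All females had a mean of -0.21 and all males of 0.21. The part of these differences in the fold changes was not tested. The first principal component of the libraries took 40.2% of the variance, with saline males 1 and 2 at one end and saline male 3 at the other.

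The 4 members richest in GC rose with this index. *Slc29a2* and *Adora2a* are themselves among the 1861 GC-rich genes that define it (at least 57.51% GC). The share of all genes with a correlation as high was not computed, so the rise is not shown to be particular to these members. Pearson's r of log2 CPM with the index over the 12 libraries, given as a description, was 0.98 for *Slc29a2* (58.0% GC), 0.96 for *Slc29a1* (55.3%), 0.93 for *Adora1* (54.2%) and 0.85 for *Adora2a* (59.2%). Spearman's rho was 0.93, 0.86, 0.92 and 0.63 in the same order. It was 0.54 for *Adora2b* (50.4%), -0.19 for *Adk* (37.5%) and -0.76 for *Nt5e* (47.96%) by Pearson's r. Without the library labelled morphine male 6, r over the other 11 was 0.98, 0.97, 0.93 and 0.87 for the 4 GC-rich members and 0.51, -0.10 and -0.74 for the other 3. Beside these, *Adk* has the lowest GC content of the members, lower than that of all but 2.77% of the genes tested, and yet did not fall as the index rose.

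Offsets that removed the trend of each library with GC content and exon length narrowed the spread of the GC-rich members. The SD of log2 CPM over the 12 mice went from 0.49 to 0.16 for *Slc29a2*, from 0.50 to 0.27 for *Slc29a1*, from 0.51 to 0.25 for *Adora2a* and from 0.27 to 0.13 for *Adora1*. It stayed at 0.11 and 0.10 for *Adora2b* and at 0.25 and 0.23 for *Nt5e*. For *Adk* it widened from 0.10 to 0.27, so the same offsets added variation to a gene that had been steady. The median over all genes went from 0.27 to 0.20. The link of single members to the index did not all go with the offsets. After them r with the index was still 0.875 for *Slc29a1*, 0.807 for *Slc29a2* and -0.613 for *Nt5e*, and it had risen to 0.758 for *Adk*. It was 0.463 for *Adora1*, 0.29 for *Adora2b* and 0.154 for *Adora2a*. With the offsets in the fit, 0 members passed in each of the comparisons.

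**Figure D4:**
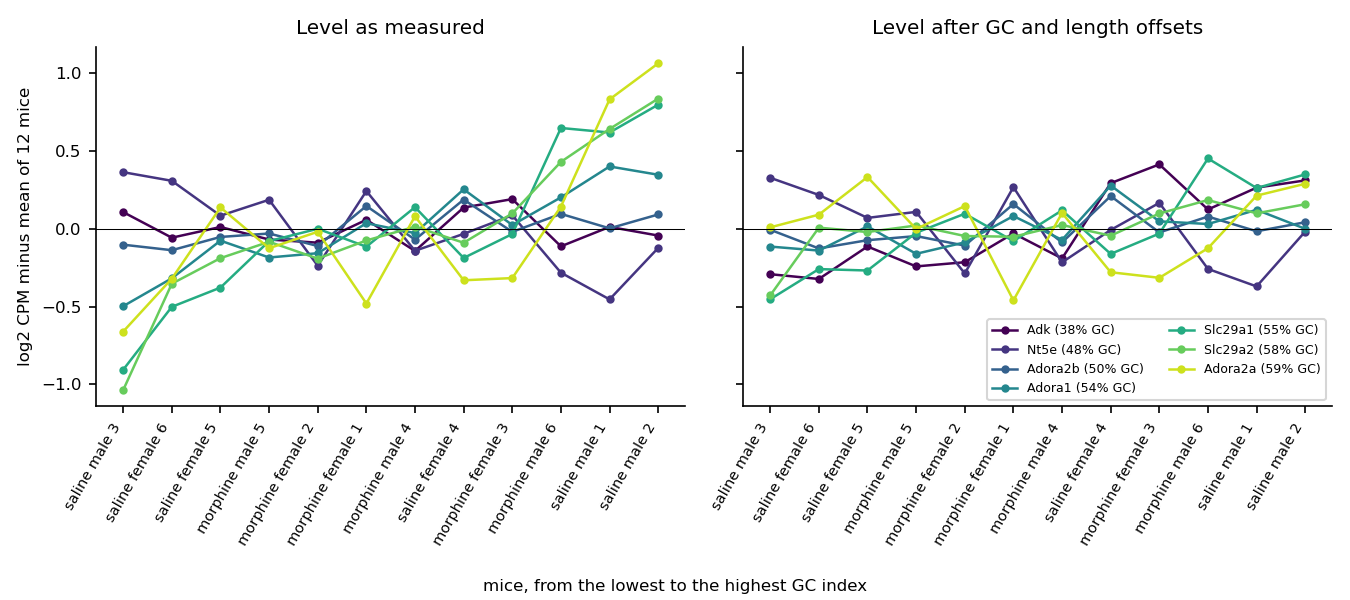
Log2 CPM of each gene minus its mean over 12 mice, with the mice ordered from the lowest to the highest GC index, as measured (left) and after offsets for GC content and length (right). On the left *Slc29a1*, *Slc29a2*, *Adora1* and *Adora2a* run from low to high and *Nt5e* from high to low, and on the right the range of *Slc29a2* falls from 1.87 to 0.61 while that of *Adk* grows from 0.33 to 0.74.

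*Slc29a1* and *Slc29a2* were the pair of members most alike, with a Pearson's r of 0.96 over the 12 libraries (Spearman's rho 0.87, r 0.93 without the 2 mice farthest from the median, r 0.79 after the offsets). *Nt5e* ran against *Slc29a1* with an r of -0.82, and of -0.76 after the offsets. These points share their libraries, so each r also holds what the libraries have in common. *Slc29a1*, *Slc29a2* and *Nt5e* still followed the GC index after the offsets, so the values after them are not free of it. The marker sums that moved most with the GC index were those of 3 ependymal genes, at 3.53 CPM in saline male 3 and 13.9 CPM in saline male 2, and of 5 oligodendrocyte genes, at 36716 CPM and 55295 CPM. Over the 4 groups the ependymal sums were 5.31 to 5.70 CPM in saline females, 3.53 to 13.9 CPM in saline males, 4.29 to 6.84 CPM in morphine females and 6.20 to 9.73 CPM in morphine males. The oligodendrocyte sums in the same order were 36410 to 46376, 36716 to 55295, 39340 to 44353 and 31641 to 39899 CPM, and none of these markers was at 0. The sums of 6 hindbrain neuron genes (628 to 733, 538 to 670, 584 to 678 and 623 to 686 CPM) and of 5 red blood cell genes (112 to 222, 154 to 470, 145 to 264 and 132 to 263 CPM, with *Hba-a2* at or near 0) had an r with the index of -0.67 and 0.66, beside 0.92 for ependymal and 0.70 for oligodendrocyte genes and -0.33 to 0.54 for the other lists. Their part in the members' spread was not tested. The sums of 6 endothelial genes, cells in which *Slc29a1* is also known, stayed between 260 and 294 CPM. Single genes of this list differed in spread, from 14.1 to 60.1 CPM for *Cldn5* and from 76.2 to 96.1 CPM for *Flt1*. The part of these cells in the value of *Slc29a1* was not tested either.

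The calls in males turned on saline male 3. Without it, 3 of 7 members passed in males, *Adora1* (-0.36), *Adora2a* (-0.93, adjusted *p* = 0.0354) and *Slc29a2* (-0.60), but 28.6% of all genes then passed as well. Those fits compare morphine males with saline males 1 and 2 alone, the libraries of the highest GC index. In the same way 1 member passed with the sexes combined (*Adora2a*, -0.52, where 2.42% of all genes passed), 3 in the difference between the sexes (*Adora2a* -0.86, *Slc29a1* -0.77, *Slc29a2* -0.79, where 24.1% passed), and 3 in males over females (*Adora2a* 0.73, *Slc29a1* 0.68, *Slc29a2* 0.56, where 20.9% passed). Without saline male 2 instead, *Slc29a1* in males was 0.20 and *Slc29a2* was 0.08, and 0 members passed.

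The library labelled morphine male 6 changed no call of a member. Without it 0 of 7 members passed in the sex-combined, male, difference and male over female comparisons. The male values were then -0.35 for *Slc29a1*, -0.43 for *Slc29a2*, -0.67 for *Adora2a*, -0.28 for *Adora1*, -0.17 for *Adk*, -0.09 for *Adora2b* and 0.02 for *Nt5e*, the only one to turn its direction. Those of *Slc29a1*, *Slc29a2* and *Adora1* had been -0.10, -0.24 and -0.16 with it.

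**Figure D5:**
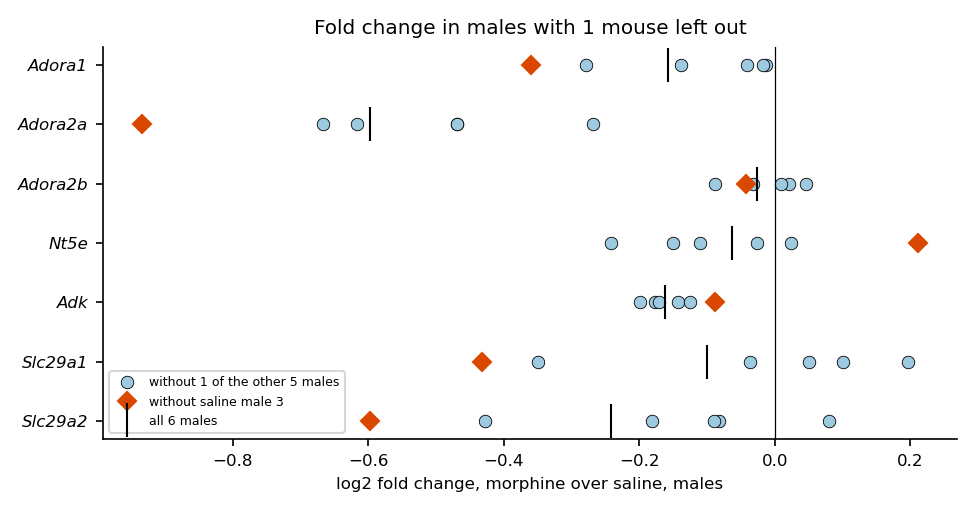
Log2 fold change of morphine over saline in males for each gene, with a bar for all 6 males, points for the fits without each of the other 5 males and a diamond for the fit without saline male 3. The diamond is the lowest value for *Adora1*, *Adora2a*, *Slc29a1* and *Slc29a2* and the highest for *Nt5e* (0.21).

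Other adenosine pathway genes passed in no treatment comparison. Of 24 such genes, 19 had enough counts to be tested with the sexes combined and in males and 18 in females, and 0 passed in each (exactTest passed 1, *Slc28a3*, in males). They were the A3 receptor gene *Adora3*, enzymes that break down nucleotides outside cells, ATP release genes, the nucleotide and adenosine enzymes inside cells, and further nucleoside transporters. Their median log2 fold change was -0.08 with the sexes combined, -0.03 in females and -0.16 in males. With the sexes combined, single genes ran from -0.28 for *Adora3* to 0.37 for *Slc28a3*. Adenosine deaminase *Ada*, the other enzyme that clears adenosine, lay at 0.443 to 1.195 CPM, against 77.6 to 97.7 CPM for *Adk* before any correction for length. In males over females 2 of 19 passed, both higher in males, beside 3.05% of all genes counted in that direction: the concentrative transporter *Slc28a3* (1.60, edgeR adjusted *p* = 0.734), at 0 to 31 counts a library, and the ATP-hydrolysing ectoenzyme *Entpd2* (0.47, edgeR adjusted *p* = 0.734), which shares 28.8% of its exon bases with *Npdc1* on the same strand. Neither passed after adjustment. *Slc28a3* measured 0.237, 0.320 and 0.338 CPM in saline males and 0.688, 1.02 and 0.266 CPM in morphine males, and 0.0872, 0.0917 and 0.400 CPM in saline females and 0.216, 0 and 0.0739 CPM in morphine females. The sum of 4 choroid plexus markers was 261 to 516 CPM in saline and 411 to 830 CPM in morphine males, and 9.56 to 467 CPM in saline and 29.0 to 162 CPM in morphine females, so that the saline groups overlapped and the morphine groups did not. Its highest mouse, morphine male 5, was also the highest for *Slc28a3*, and its part in that value was not tested. Without the library labelled morphine male 6, *Slc28a3* (1.72) passed and *Entpd2* (0.42) did not, *Slc28a3* (1.31) did not pass without morphine male 5, and with the offsets *Entpd2* was 0.16 and did not pass.

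For each member the gene most like it was taken as the one of 15055 with the highest Pearson's r of log2 CPM over the 12 libraries. These were *Rasd2* for *Adora1* (0.985), *Dip2a* for *Adora2a* (0.971), *Cyp4f17* for *Adora2b* (0.956) and *Gm5165* for *Nt5e* (0.977). They were *Utp3* for *Adk* (0.978), *Epha10* for *Slc29a1* (0.987) and *Grn* for *Slc29a2* (0.995). Each r was picked as the highest of 15055, so its size is a description only. After the offsets the likeness stayed above 0.9 for *Rasd2* (0.919), *Cyp4f17* (0.933) and *Grn* (0.934). It fell to 0.609 for *Dip2a*, 0.526 for *Gm5165*, 0.432 for *Utp3* and -0.323 for *Epha10*. *Slc29a2* still followed the GC index after the offsets (r 0.807), so its likeness to *Grn* is not free of that index.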

How the data were processed

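Brainstem RNA of 12 mice was sequenced on 1 lane as 100 bp single reads from poly-A libraries. The authors made the count table with scruff (preprocessing), Trimmomatic (trimming), STAR (alignment to mm10) and featureCounts, which summed reads over exons of the Ensembl GRCm38 gene models. The deposited file thus holds raw counts per gene, 27850565 to 48097947 in a library. Tool versions and the settings for strand and shared reads are not given in the sources used here.

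Groups came from the labels. The study names dam as a covariate, and no label gives it, so it was not used. All genes were fitted with edgeR 4.0.16 in R 4.3.3 (quasi-likelihood test, TMM, filterByExpr), p values were adjusted by Benjamini-Hochberg over all genes tested, and standard errors and intervals follow from the F statistic. The edgeR fit was run in its legacy form, chosen because it follows an earlier processing of these data and after values under both forms had been seen. Levels are CPM with TMM factors of the 12 libraries and a prior count of 2 on the log2 scale. Lengths, GC content and positions came from GENCODE M21 on GRCm38, and promoters from RefSeq on GRCm38.p6. Offsets were loess fits with a span of 0.5.

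The 7 members and the lists of 24 pathway genes and of markers were chosen with earlier results of these data known. Named genes were all members, pathway genes passing in a treatment comparison (0 did; those given here for males over females, and *Ada*, *Adora3* and *Slc28a3*, were chosen after their values were seen), and the most alike gene of each member. Sexes were compared apart, together and by their interaction. Alternatives were exactTest (named by the study), DESeq2 1.42.0, other scalings and filters, a replicate block, leaving out each mouse, the offsets and the newer fit, the last of these chosen after seeing the data, as were the offsets and the correlations with the GC index over 11 libraries. The fits were tested on simulated data, in which 200 genes were given a known change. At a log2 fold change of 0.5, the thresholds were passed by 81.5% of these genes with the sexes combined, 73% in females and 36.5% in males. A change of that size was thus missed more often in males. In males 0% of the changed genes had an edgeR adjusted *p* under 0.05, at a log2 fold change of 0.5 or of 1.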

Additional observations from a re-analysis of the deposited data

Results flagged for a closer look

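*Slc29a1* in the library labelled morphine male 6, at 14.2 CPM, stood apart from the other 5 morphine mice, which lay between 8.38 and 10.0 CPM. It was 1 of 14 sets of 6 mice tested (7 genes in 2 treatments) for a highest or lowest mouse whose gap to its neighbour is large against the range of the set, and chance alone gives about 1 such set in 20. The same library had the highest GC index of the morphine mice (0.56) and *Xist* at 380 CPM, and the part of either in this value was not tested. After the offsets for GC content and length its log2 CPM of *Slc29a1* was 3.64, still the highest of the morphine mice.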

How the results depend on the processing

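Of 665 member values recomputed, 75 changed sign, 38 of them of *Adora2b*, and 0 of these passed the thresholds in either form. All 22 values that passed only in an alternative belonged to *Adora1*, *Adora2a*, *Slc29a1* or *Slc29a2*. Members passing in males over females numbered 2 with the DESeq2 Wald test, with no filter (genes at 0 in all libraries left out) and with the adjusted deviance, and 1 with DESeq2 size factors and with total counts. In females 1 member (*Slc29a1*) passed with total counts. In males 1 pathway gene (*Slc28a3*) passed with exactTest, total counts and no filter. With 1 mouse left out, members passing ranged from 0 to 1 with the sexes combined and in females, and from 0 to 3 in males, in the difference between the sexes and in males over females, and pathway genes passing ranged from 0 to 2, 0 to 1 and 0 to 5 in the sex-combined, female and male fits. In males over females pathway genes passing numbered 2, but 6 with no filter and 1 with at least 10 counts in every library (*Entpd2*) or with the offsets (*Slc28a3*). With 1 mouse left out they ranged from 1 to 6, with 6 without saline male 3 and only *Slc28a3* without saline male 1 or 2, morphine female 2, morphine male 6 or any 1 of the saline females. The extra member and treatment calls came without saline male 3, without saline female 4 (*Slc29a1*, *Slc29a4*) and without morphine male 6 (*Slc28a3*). Without morphine female 1 they were *Pnp* in females, and *Pnp* and *Slc28a3* in the difference between the sexes. In males over females, extra member calls also came without morphine female 2 (*Adora2a*) and morphine male 5 (*Slc29a1*). In the difference with all mice, *Slc28a3* passed with no filter and *Pnp* with the offsets.

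Sign changes with all mice were as follows, as log2 fold changes. *Adora2b* with the sexes combined became -0.0073 (DESeq2), -0.0065 (DESeq2 size factors), -0.0092 (no filter) and -0.011 (offsets), and in males over females 0.0063, 0.0051, 0.0033 (no filter) and 0.0054 (total counts). In females it became 0.0050 (total counts), 0.0019 (at least 10 counts), 0.0033 (fit of 12 mice) and 0.00039 (offsets), in males 0.098 (total counts), and in the difference 0.093 (total counts) and 0.011 (at least 10 counts). *Slc29a2* with the sexes combined became 0.016 (total counts), 0.047 (replicate block) and 0.062 (offsets). Total counts also turned *Adora1* in females (0.00057), and *Nt5e* (0.061) and *Slc29a1* (0.023) in males. The offsets turned *Slc29a1* (0.093) and *Slc29a2* (0.10) in males, *Adora2a* (0.046), *Nt5e* (-0.092) and *Slc29a2* (0.078) in the difference, and *Adora1* (-0.068) in males over females. The cause was not tested.

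With 1 mouse left out, signs changed with the sexes combined for *Adora1* (-0.18 to 0.0066), *Slc29a2* (-0.21 to 0.13), *Adora2b* (-0.053 to 0.046), *Nt5e* (-0.14 to 0.029) and *Slc29a1* (-0.057 to 0.27). They changed in females for *Adora1* (-0.12 to 0.15), *Adora2b* (-0.077 to 0.093), *Adora2a* (-0.26 to 0.068), *Nt5e* (-0.20 to 0.032) and *Adk* (-0.053 to 0.087), and in males for *Slc29a1* (-0.43 to 0.20), *Adora2b* (-0.088 to 0.046), *Slc29a2* (-0.60 to 0.080) and *Nt5e* (-0.24 to 0.21). In the difference they changed for *Adora1* (-0.39 to 0.019), *Nt5e* (-0.12 to 0.27) and *Adora2b* (-0.13 to 0.045), and in males over females for *Adora2b* (-0.032 to 0.055).

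With the replicate number as a block 0 members and 0 pathway genes passed with the sexes combined. The numbers did not pair the mice: correlations of same-numbered mice were between -0.36 and 0.18. No paired analysis was possible within a sex or for the difference because the saline and morphine mice of a sex share no numbers. By the longest transcript the levels per kb moved for *Nt5e* (3.24), *Adk* (20.6) and *Slc29a1* (4.21).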
